A study of Mus musculus with 18 samples.

Results

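Thy1 is a cell surface protein of fibroblasts, and its loss is an early step in the reprogramming of fibroblasts to induced pluripotent stem cells. The genes described here are those whose level differed by at least 1 on the log2 scale, a doubling or more, between Thy1-positive cells sorted on day 3 of OKSM expression, which the labels call refractory, and uninduced mouse embryonic fibroblasts (MEFs). They numbered 1086 of the 22180 genes with 1 symbol on the array (4.90%), of which 573 were higher and 513 lower in the Thy1-positive cells. OKSM stands for the reprogramming factors Oct4, Klf4, Sox2 and Myc, which these "reprogrammable" fibroblasts express when the drug doxycycline (dox) is added. Both samples and the cultures set beside them carry the strain label Black6-129X1/SvJ and derive from fibroblasts of the reprogrammable mouse, so the MEFs without dox carry the OKSM transgene too.

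The sorted Thy1-positive cells and the MEFs without dox were each measured on 1 whole-transcript Affymetrix array, so no difference between them has an error or a p-value, and the size of a difference is given alone. The series holds 18 arrays in all. Used beside the pair were unsorted cultures on days 2, 4, 6, 8, 10 and 12 of OKSM with AGi (ascorbic acid and an inhibitor of the kinase GSK3) and of OKSM alone, 1 array per arm and day. The labels say that cells grew in ESC or MEF medium according to cell type. The effects of OKSM, dox, medium, days in culture and sorting therefore cannot be told apart between the Thy1-positive cells and the MEFs. Levels are log2 values per gene. They are compared between samples of a gene and not between genes.

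Fibroblasts make and remodel the collagen-rich matrix and, when stimulated by TGF-beta, build contractile fibres of smooth muscle actin. Reprogramming factors silence this mesenchymal programme, and later the epithelial and pluripotency genes come on. Cells that keep Thy1 after induction are the ones that have left the fibroblast state least by that measure.

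The 2 arrays had like medians, 6.32 in Thy1-positive cells and 6.39 in MEFs, within the range of 6.32 to 6.46 over all arrays. The hybridisation controls, spiked in and of no cell, read lower on the Thy1-positive array at each of their 18 probe sets, by 0.19 to 0.58 (median −0.43); their part in the differences was not tested. A further set of values bears on many of the genes below. Within the OKSM cultures, some genes differed by 1 log2 or more between the mean of days 8 to 12 and the mean of days 2 to 6: 452 genes were higher late (2.04% of all genes) and 68 lower (0.307%). Among the 573 genes higher in Thy1-positive cells, 62 were of the late-higher kind (10.8%) and 10 of the late-lower kind (1.75%). Among the 513 lower ones, 70 were late-higher (13.6%) and 25 late-lower (4.87%). The Thy1-positive array, of day 3, read nearer the late than the early mean in 28 of these 62 late-higher genes, 1 of 10, 7 of 70 and 20 of 25, in the order just given, and nearer the early mean in the rest. The MEF array read nearer the late mean in 0 of 62, 10 of 10, 66 of 70 and 2 of 25. The members were chosen on the Thy1-positive and MEF values, so these counts are set in part by the rule. Over all genes the Thy1-positive array was nearer the late mean in 92 of the 452 late-higher and 32 of the 68 late-lower genes. Dkk2 (6.73 in Thy1-positive cells, 6.72 early, 9.60 late), Igfbp5 (6.45, 6.58 and 8.55) and Postn (7.61, 7.88 and 10.94) are members on the early side, and the members of the Hox family, given below, lay mostly on the late side. Without all such genes, 501 were higher and 418 lower in Thy1-positive cells.

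The sort label was checked against the fibroblast genes. Thy1 itself read 11.24 in Thy1-positive cells, 10.83 in the OKSM culture on day 2, 10.36 on day 4 and 11.63 in MEFs, so the sorted cells were 0.39 below MEFs and above both cultures. Prrx1 (12.08 in Thy1-positive cells, 11.79 in MEFs), Twist1 (8.76 and 8.64) and Snai2 (11.50 and 11.80), transcription factors of mesenchymal cells, differed by 0.31 or less in size. Col1a1, the main fibrillar collagen chain, was 11.69 in Thy1-positive cells and 12.60 in MEFs. Over all 13 fibroblast markers, 2, Postn and Pdgfrb, were lower by 1 log2 or more and none was higher. Fut9 and Fut4 encode fucosyltransferases that can make SSEA1, an epitope of later reprogramming intermediates. Fut9 read 7.68 in Thy1-positive cells, 6.66 in MEFs and 9.49 in embryonic stem cells, a difference from MEFs of 1.02. Fut4 read 6.81 in Thy1-positive cells, 6.91 in MEFs and 6.21 in embryonic stem cells. Epcam (5.73 and 5.99) and Cdh1 (7.15 and 6.56), both of epithelial cells, and Nanog (6.51 and 6.09), of pluripotent cells, also stayed within 1 log2.

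**Figure D1:**
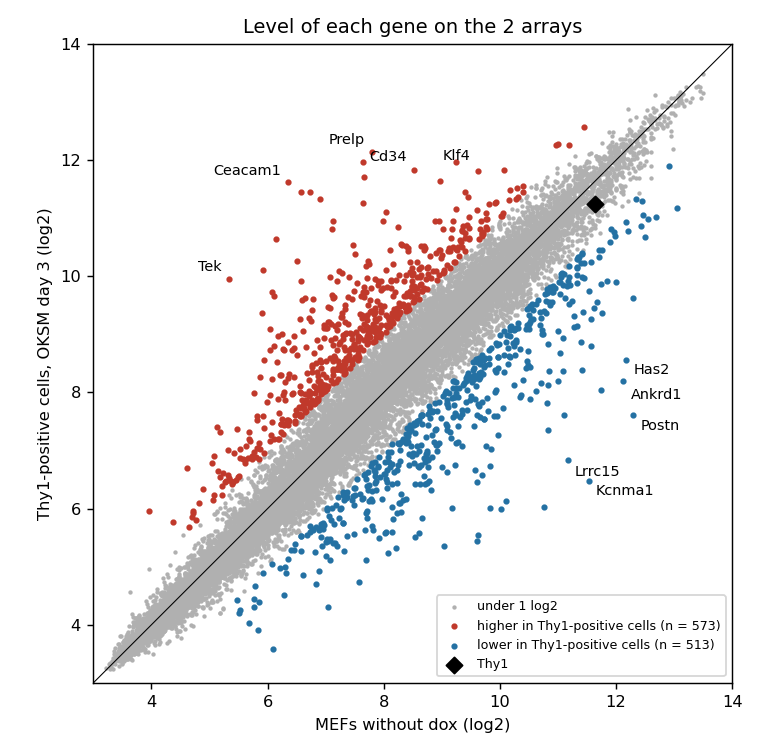
Level of each of 22180 genes in Thy1-positive cells (vertical axis, log2) against MEFs without dox (horizontal axis, log2), 1 array each. Red points are the 573 genes at least 1 log2 higher in Thy1-positive cells, blue points the 513 at least 1 log2 lower, and the black diamond is Thy1, 0.39 below the line of equal levels.

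Most differences were moderate. The genes above the threshold made up 2.58% of all genes in the higher direction and 2.31% in the lower, and these shares are set by the rule. Among the higher genes 108 differed by at least 2 log2, 22 by at least 3 and 10 by at least 4; among the lower genes the numbers were 102, 23 and 7. Over all genes the median difference was −0.02 and the median size 0.19. Just inside the threshold lay Zfp763 (1.001), Stim2 (1.002) and Msi2 (1.002) on the higher side and Hmgcs1 (−1.004), F2r (−1.004) and Snx24 (−1.004) on the lower. Just outside were Cd200r2, Cxcl3 and 2510002D24Rik (each 0.999), and Insig1, Frzb and Hoxa3 (each −0.998). A low-value filter, which asks that a gene reach the array's median in Thy1-positive cells or in MEFs, was passed by 562 of the 573 higher and 496 of the 513 lower genes.

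The 12 highest differences, chosen by size, ranged from 3.76 to 5.27. Ceacam1, an adhesion molecule, read 11.62 in Thy1-positive cells, 10.06 in the OKSM culture on day 2, 11.27 on day 4 and 6.36 in MEFs, a difference of 5.27 between the sorted cells and MEFs. Tek, the angiopoietin receptor best known from endothelium, read 9.96 in Thy1-positive cells, 10.17 on day 2, 10.36 on day 4 and 5.33 in MEFs (4.63). Both genes were therefore high on every OKSM array named and low in MEFs. Of 14 endothelial markers Tek was the only one higher by 1 log2, while Flt1 (6.74 in Thy1-positive cells, 9.83 in MEFs), a VEGF receptor, and Emcn (4.31 and 7.04), an endothelial sialomucin, were lower.

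Aldh3a1, an aldehyde dehydrogenase, read 11.46 in Thy1-positive cells and 6.57 in MEFs (4.89). Gsta4, a glutathione transferase that clears products of lipid peroxidation, read 11.70 in Thy1-positive cells and 7.66 in MEFs (4.04). Gsta4 was also the highest of the oxidative stress list, which had 4 of 20 genes higher and none lower. The other three were Nqo1, a quinone reductase (9.39 in Thy1-positive cells, 7.95 in MEFs), Gclm, a subunit of the enzyme that starts glutathione synthesis (11.27 and 9.94), and the carbonyl reductase Cbr3 (7.13 and 5.86). The median of that list, 0.11, was close to the −0.02 of all genes.

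Prelp, a small leucine-rich proteoglycan of the matrix, read 12.15 in Thy1-positive cells and 7.79 in MEFs (4.36). Igfbp3, a binding protein for insulin-like growth factors, read 11.97 in Thy1-positive cells and 7.64 in MEFs (4.33). Mme, the cell surface peptidase neprilysin, read 11.34 and 6.91 (4.43). Podxl, a sialomucin of podocytes and pluripotent cells, read 10.11 in Thy1-positive cells, 10.69 on day 2 and 11.79 on day 4 of OKSM, and 5.93 in MEFs (4.18). The remaining highest genes were Tmem35a (4.72), a chaperone of acetylcholine receptors, U90926 (4.51), Trh (3.82), the precursor of thyrotropin-releasing hormone, and Prss35 (3.76), of the serine protease family. U90926 stood apart among them in the cultures, at 7.65 on day 2 and 9.97 on day 4 against 10.65 in Thy1-positive cells.

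The 12 lowest differences, also chosen by size, ranged from −5.05 to −3.68. Kcnma1, the pore-forming subunit of the BK potassium channel, read 6.48 in Thy1-positive cells and 11.53 in MEFs (−5.05), and its regulatory subunit gene Kcnmb1 read 5.54 and 9.62 (−4.08). Kcnmb1 was also low in the OKSM cultures (6.36 on day 2, 6.11 on day 4), whereas Kcnma1 was 11.71 and 11.91 on those days. Postn, encoding the matrix protein periostin, read 7.61 in Thy1-positive cells and 12.30 in MEFs (−4.69), and in the cultures 10.70 on day 2 and 6.02 on day 4. Lrrc15, a membrane protein of activated fibroblasts, read 6.84 in Thy1-positive cells, 7.21 on day 2, 6.89 on day 4 and 11.17 in MEFs (−4.33). Its level in the sorted cells thus lay with the cultures.

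Tfpi2, an inhibitor of serine proteases (−3.98), Tll1, a relative of the protease that trims procollagen (−3.71), and Tnmd, the tendon protein tenomodulin (−3.68), were among the 12 lowest too. So were Map3k7cl (−4.74), the chemokine gene Ccl17 (−4.17), Lce1h of the late cornified envelope family (−4.03), Ankrd1 (−3.93) and the cadherin gene Cdh10 (−3.83). Map3k7cl read 6.03 in Thy1-positive cells and 10.77 in MEFs, and Tll1 read 8.04 and 11.74.

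**Figure D2:**
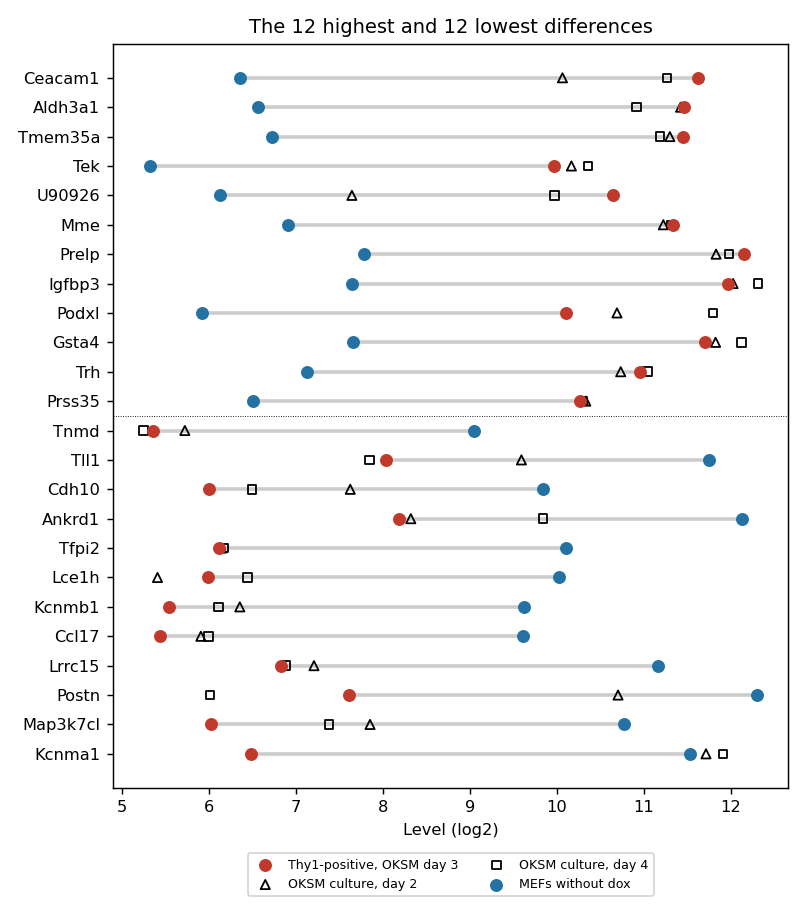
The 12 genes with the highest and the 12 with the lowest difference, in log2 units, in Thy1-positive cells (red), the OKSM culture on day 2 (triangles) and day 4 (squares), and MEFs without dox (blue), 1 array each. For most genes the triangles and squares lie near the red points; for Kcnma1 they lie near the blue one (11.71 and 11.91 against 11.53), and for Postn they lie on both sides of the red point (10.70 and 6.02).

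The sorted cells can be set beside the unsorted OKSM cultures. Against the same MEF array, which these comparisons share, the day 2 culture had 665 genes higher (3.00%) and 494 lower (2.23%), and the day 4 culture 660 higher (2.98%) and 577 lower (2.60%). Compared directly, Thy1-positive cells had 119 genes higher (0.537%) and 118 lower (0.532%) than the day 2 culture, and 129 higher (0.582%) and 163 lower (0.735%) than the day 4 culture. The day 4 culture differed from the day 2 culture in 141 genes that were higher (0.636%) and 135 that were lower (0.609%), and the day 6 from the day 4 culture in 21 (0.0947%) and 7 (0.0316%). Of the genes higher in Thy1-positive cells than in MEFs, 470 of 573 (82.0%) lay within 1 log2 of both the day 2 and the day 4 culture. Of the lower genes, 426 of 513 did (83.0%). The same held for 98.0% of all genes, most of which differed little on any array.

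Only 6 genes in Thy1-positive cells lay at least 1 log2 outside all 13 other fibroblast-derived arrays, that is the 12 cultures and MEFs. Pparg, the master regulator of adipocyte differentiation, read 9.43 in Thy1-positive cells, between 6.76 and 8.08 in the cultures, and 7.32 in MEFs. A second adipocyte regulator, Cebpa, was 8.02 in Thy1-positive cells and 6.99 in MEFs, but it did not lie outside the cultures. In those with OKSM alone Cebpa read 6.86 on day 2, 6.49 on day 4 and 8.35 on day 12. The other 8 of 10 adipocyte markers stayed within 1 log2 and all lay below 0, which left the list's median at −0.07. Plekhs1 (7.59 in Thy1-positive cells, 5.81 in MEFs), the hair keratin gene Krt84 (8.27 and 5.88), Camk2n2 (9.11 and 6.97), an inhibitor of the kinase CaMKII, and Gm5105 (7.19 and 5.68) were the others above. Mcam, an adhesion molecule of perivascular cells, was the single gene below: it read 8.39 in Thy1-positive cells, from 9.49 to 11.37 in the cultures, and 11.42 in MEFs.

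Contractile and TGF-beta genes were the list with the most members below the threshold: 15 of 32 were lower in Thy1-positive cells and 1 was higher, with a median of −0.86 against −0.02 over all genes. Over all genes 2.58% were higher and 2.31% lower, the shares to set beside the counts of this and the other lists. Ankrd1, an ankyrin repeat protein of stretched muscle and a YAP target, read 8.19 in Thy1-positive cells and 12.12 in MEFs (−3.93). Cnn1, the smooth muscle calponin, read 9.62 in Thy1-positive cells, 9.49 on day 2, 9.30 on day 4 and 12.30 in MEFs (−2.68). Des, the muscle intermediate filament desmin, read 7.08 in Thy1-positive cells and 9.76 in MEFs, and Myh11, the smooth muscle myosin heavy chain, 7.21 and 9.15. Of the ligands, Inhba, the activin A subunit, was lower by 2.77 log2 units (8.80 in Thy1-positive cells, 11.57 in MEFs). Tgfb1 (−1.49), Tgfb2 (−1.27) and Tgfb3 (−1.15), which encode the TGF-beta ligands themselves, and Ltbp1 (−1.30) and Ltbp2 (−1.17) of the latent TGF-beta binding protein family were lower as well. Acta2, the smooth muscle actin gene, read 13.20 in Thy1-positive cells and 13.45 in MEFs, and Tgfbi, a TGF-beta induced matrix protein, was the member that was higher (11.49 and 10.17). The day 2 culture had 16 of these 32 genes lower and the day 4 culture 14.

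Serum response factor controls many contractile and immediate early genes through the CArG box, so the promoter windows of Acta1 (skeletal muscle alpha-actin), Dusp5 (a phosphatase of ERK) and Myl9 (a myosin light chain) are shown, with the CArG boxes in capitals. The sequences are from RefSeq (GRCm38.p6) and run from 250 bases before to 50 after the gene's start. Acta1 lies at chr8:123894726-123895025 on the minus strand, Dusp5 at chr19:53528895-53529194 on the plus strand and Myl9 at chr2:156775214-156775513 on the plus strand.
Acta1: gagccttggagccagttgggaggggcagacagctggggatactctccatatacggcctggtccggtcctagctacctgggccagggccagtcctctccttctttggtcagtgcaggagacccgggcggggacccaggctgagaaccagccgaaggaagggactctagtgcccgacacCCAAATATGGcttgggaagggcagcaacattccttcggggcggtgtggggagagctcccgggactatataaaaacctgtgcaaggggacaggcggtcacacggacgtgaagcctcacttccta
Dusp5: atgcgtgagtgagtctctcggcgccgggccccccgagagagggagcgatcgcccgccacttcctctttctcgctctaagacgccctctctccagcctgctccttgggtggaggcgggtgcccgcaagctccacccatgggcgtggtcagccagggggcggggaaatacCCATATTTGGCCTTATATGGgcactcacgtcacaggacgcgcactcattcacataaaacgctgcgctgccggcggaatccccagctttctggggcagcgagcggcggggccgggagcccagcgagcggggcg
Myl9: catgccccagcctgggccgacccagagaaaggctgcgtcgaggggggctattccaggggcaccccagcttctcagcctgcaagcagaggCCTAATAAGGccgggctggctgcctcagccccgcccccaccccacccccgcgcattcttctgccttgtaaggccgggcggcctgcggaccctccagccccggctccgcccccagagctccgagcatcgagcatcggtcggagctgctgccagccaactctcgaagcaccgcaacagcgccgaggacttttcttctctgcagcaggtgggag

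Acta1 read 7.81 in Thy1-positive cells and 10.82 in MEFs (−3.01), Dusp5 9.07 and 10.73 (−1.65), and Myl9 11.05 and 12.47 (−1.41). On both strands of the same 300-base windows, a CArG box was found in 1.34% of the 447 higher genes with a window and in 4.06% of the 345 lower ones. The share was 1.81% of all 27025 genes with a window and 1.67% of the 16990 of them on the array. Within the TGF-beta and contractile list, a box was found in 4 of 25 genes with a window (16.0%), but in only 1 of the 13 lower ones (7.69%), Myl9. The 14 lower genes of the whole array with a box also included Egr2, Fhl2, Igf2 and Pdgfc. The 6 higher genes with a box were Ampd3, Aspa, Ebf3, Klf8, Ripor2 and Slc25a23. These are matches of letters, and no binding was measured.

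Matrix genes were divided. None of the 23 collagen chain genes was higher and 7 were lower, with a list median of −0.77. Col8a1, a short-chain collagen, read 9.55 in Thy1-positive cells and 11.67 in MEFs, Col7a1, of anchoring fibrils, 6.93 and 8.72, and Col5a2, a fibril-regulating chain, 9.51 and 10.86. Col12a1 (−1.43), Col14a1 (−1.19), Col4a2 (−1.07) and Col4a1 (−1.07) were the other four. Col6a3, of microfibrils, differed by 0.39.

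Among 40 other matrix and proteoglycan genes, 6 were higher and 7 lower. Beside Prelp and Igfbp3, the higher ones were Spon2 (2.13), Efemp1 (1.91), the fibrillin gene Fbn2 (1.40) and Omd (1.23). The lower ones, beside Postn, included the hyaluronan synthase gene Has2 (8.56 in Thy1-positive cells, 12.17 in MEFs), Igfbp5 (6.45 and 9.60) and Aspn (7.95 and 10.37). Without the genes that differed between late and early OKSM cultures, 3 of the 7 lower ones were left.

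Matrix proteases and their inhibitors had 10 of 28 genes lower and none higher (6 lower without the late-against-early genes). The plasminogen activators were both among them: Plat read 8.22 in Thy1-positive cells and 10.39 in MEFs, and Plau read 8.44 and 10.52. Plaur, the urokinase receptor, was lower by 1.25 log2 units. The sheddases Adam19 (9.14 and 11.32) and Adam12 (8.75 and 10.35) and the gelatinase Mmp9 (6.75 and 8.65) were lower in Thy1-positive cells also.

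Surface and identity genes of fibroblasts had 2 of 30 higher and 8 lower. Cd34, a sialomucin of progenitor cells and of some fibroblasts, read 11.83 in Thy1-positive cells, 11.49 on day 2, 11.95 on day 4 and 8.52 in MEFs (3.31). Nt5e, the ectonucleotidase CD73, read 9.51 and 7.94. The 8 lower genes (5 without the late-against-early genes) included Itga11, a collagen-binding integrin subunit (7.88 in Thy1-positive cells, 10.51 in MEFs), Pdgfrb, the platelet-derived growth factor receptor beta (9.91 and 12.00), and Cdh11, the mesenchymal cadherin (10.68 and 12.50). Fap, a marker of activated fibroblasts, was lower by 1.31 log2 units, and Cd44 differed by −0.27.

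**Figure D3:**
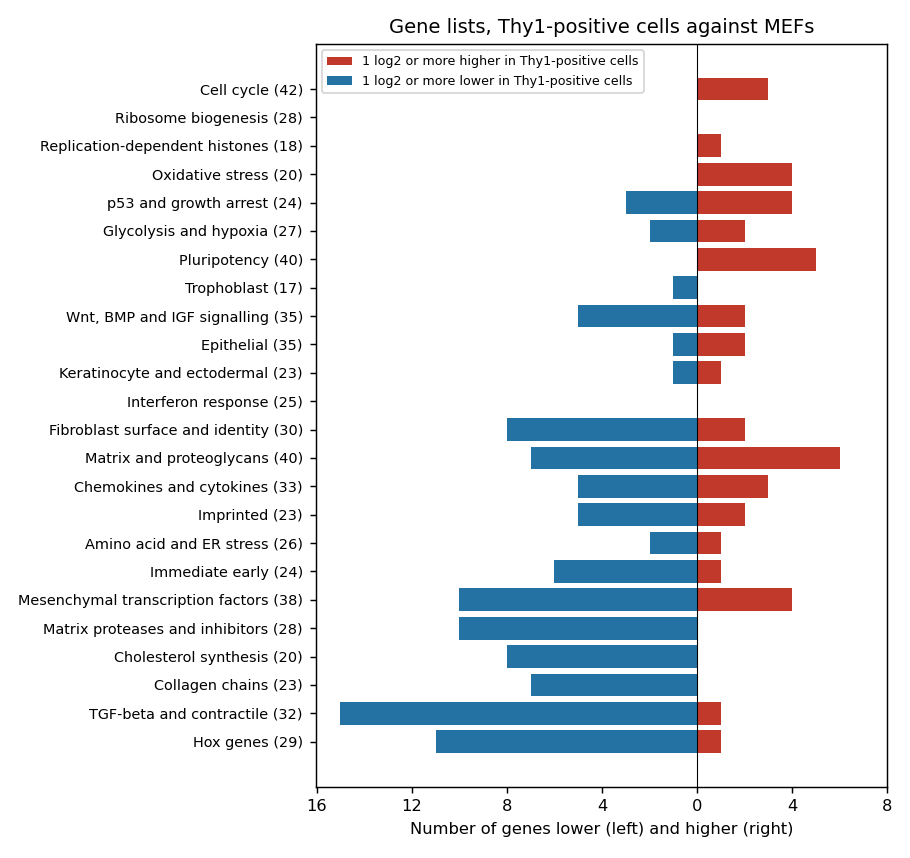
Number of genes at least 1 log2 higher (red, right) and lower (blue, left) in Thy1-positive cells than in MEFs in 24 gene lists, ordered by the list's median difference, with the number of genes on the array in brackets. The TGF-beta and contractile list has the most lower genes (15 of 32), and the pluripotency list has 5 higher and none lower.

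Transcription factors of mesenchymal cells and their signals had members on both sides. Of 38 factors, 10 were lower and 4 higher. Meox2 read 9.92 in Thy1-positive cells and 6.57 in MEFs (3.35), whereas its paralogue Meox1 read 6.02 and 8.14 (−2.12); both are homeobox factors of the somite. Mkx (1.60), a tendon factor, Tbx18 (1.13) and Ebf3 (9.44 in Thy1-positive cells, 8.44 in MEFs) were the other higher ones. Sox9, the cartilage factor, read 8.42 and 10.44, Foxc2 8.01 and 9.91, and Foxf1 7.87 and 9.49. Scx (−1.21), a tendon factor, Twist2 (−1.13) and Snai1 (−1.05) were lower.

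Of 35 genes of Wnt, BMP and IGF signalling, 2 were higher and 5 lower. The secreted Wnt antagonist gene Sfrp2 read 10.81 in Thy1-positive cells and 7.12 in MEFs (3.70), and Sfrp1 read 10.96 and 9.68. Igf2, an imprinted growth factor gene, read 9.12 and 11.28 (−2.16), Wnt5a, a ligand of noncanonical Wnt signalling, 7.13 and 9.25, and the antagonist gene Dkk2 6.73 and 8.58. Grem1 (−1.27) and Bmp5 (−1.16) were the other two. Sfrp2, Igf2 and Dkk2 were among the genes that differed between late and early OKSM cultures, and without such genes 1 was higher and 2 were lower.

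Hox genes encode the homeobox factors that give cells their position along the body axis, in 4 clusters. Of 36 on the array, 12 were lower in Thy1-positive cells than in MEFs and 1 was higher. The lower ones lay in the Hoxb cluster (7 of 10, median −1.12) and the Hoxc cluster (5 of 9, median −1.08), with none of the 9 Hoxa genes (median −0.42) and none of the 8 Hoxd genes (0.20). Hoxb9 read 8.16 in Thy1-positive cells and 10.71 in MEFs (−2.56), Hoxb6 6.85 and 8.77, Hoxb5 7.32 and 9.14, and Hoxc6 7.89 and 9.57. Hoxd13, of the distal limb, was the higher one, at 10.62 and 9.31.

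In 12 of these 13 genes, all but Hoxc12, the Thy1-positive array read nearer the mean of the late OKSM cultures (days 8 to 12) than that of the early ones (days 2 to 6). The MEF array read nearer the early mean in 12 of the 13. Both counts are set in part by the rule, which chose these genes on the Thy1-positive and MEF values. Of the 13, 7 also differed by 1 log2 or more between the late and early means. Among Hox genes within 1 log2 of MEFs some lay on the early side, such as Hoxa10 (7.95 in Thy1-positive cells, 7.61 early, 8.85 late). Hoxc6 read 9.60, 9.43 and 9.61 in OKSM cultures on days 2, 4 and 6, and 7.86, 8.11 and 7.72 on days 8, 10 and 12, with 7.89 in Thy1-positive cells. Hoxd13 averaged 8.68 on days 2 to 6 and 10.85 on days 8 to 12, with 10.62 in Thy1-positive cells. Kcnma1 read 11.71, 11.91 and 12.02 on days 2, 4 and 6 and 6.50, 6.25 and 6.47 on days 8, 10 and 12, with 6.48 in Thy1-positive cells. Its level was 12.52 in embryonic stem cells.

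Penk, the enkephalin precursor gene, averaged 7.44 on days 2 to 6 and 12.74 on days 8 to 12, and read 10.06 in Thy1-positive cells and 7.29 in MEFs. C1qtnf3 averaged 10.55 and 8.27 in the early and late cultures and read 8.13 in Thy1-positive cells and 10.82 in MEFs. Without the late-against-early genes, 5 of the 11 lower genes of the Hox list (29 genes on the array) were left, and Hoxd13 was not. Other genes named above kept one level throughout the OKSM cultures: Tek averaged 10.24 on days 2 to 6 and 10.22 on days 8 to 12, and Lrrc15 6.89 and 6.90.

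**Figure D4:**
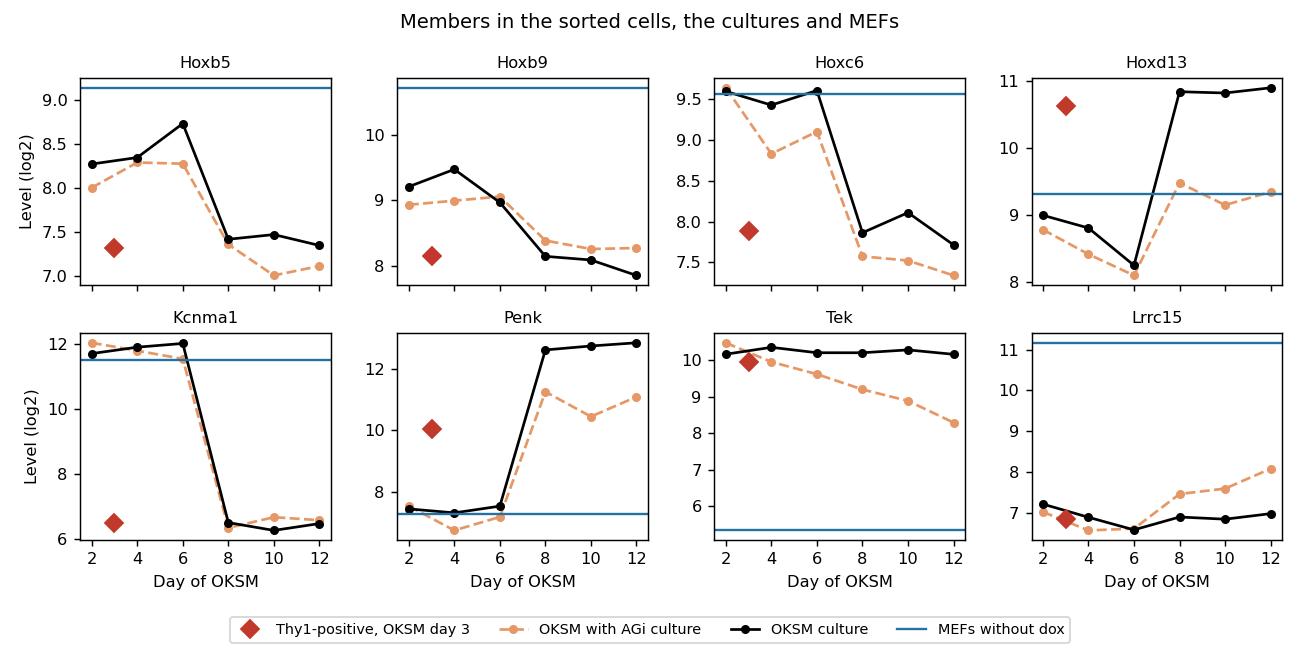
Levels (log2) of 8 genes against the day of OKSM: Thy1-positive cells on day 3 (red diamond), cultures with OKSM and AGi (dashed), cultures with OKSM alone (black) and MEFs without dox (blue line), 1 array per point. For Hoxc6, Hoxd13 and Kcnma1 the diamond lies at the level of days 8 to 12, for Penk it lies between the early and late levels, and for Tek and Lrrc15 all OKSM arrays lie together and away from MEFs.

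Of the reprogramming factors, Klf4 read 11.81 in Thy1-positive cells, 11.89 on day 2, 12.11 on day 4 and 9.62 in MEFs (2.19). Myc (10.72 in Thy1-positive cells, 11.40 in MEFs), Sox2 (5.83 and 5.36) and Pou5f1, which encodes Oct4 (7.27 and 6.80), stayed within 1 log2. The sources used here do not say whether their probe sets detect the transgene, the endogenous transcript or both. Of the 40 genes in the pluripotency list, Fgf4, a growth factor of the early embryo, was also higher (9.08 and 7.20). The other higher ones were Sall1 (8.79 and 7.59), Etv5 (10.64 and 9.47) and Fut9, named above (7.68 and 6.66). None was lower, and the list's median was 0.03.

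Of 35 epithelial genes, 2 were higher and 1 was lower, against 2.58% and 2.31% of all genes. Krt19, a keratin of simple epithelia, read 10.56 in Thy1-positive cells, 8.82 on day 2, 10.41 on day 4 and 8.29 in MEFs (2.27), and Dsp, the desmosomal protein desmoplakin, read 6.86 and 5.85. Dsp was higher in the cultures (8.36 on day 2 and 8.97 on day 4) than in the sorted cells. Cdh3, P-cadherin, was lower in Thy1-positive cells (7.60 and 9.96). The other 32 of 35 stayed within 1 log2.

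Of 42 cell cycle genes, 3 were higher by 1 log2 or more, none was lower and 39 stayed within 1 log2. The median of the list was 0.49, and 40 of the 42 differences lay above 0, against 47.2% of all genes. The 3 higher ones were Mcm10, a factor of replication origins (9.10 in Thy1-positive cells, 7.92 in MEFs), Pola1, the catalytic subunit of DNA polymerase alpha (9.50 and 8.42), and Rrm1, a ribonucleotide reductase subunit (12.27 and 11.20). Mki67, a proliferation marker, read 11.17 and 10.65. Of the p53 and growth arrest list, 4 of 24 were higher, led by Perp, a p53 target of cell junctions (9.92 and 7.19), and the death receptor gene Fas (8.68 and 6.81), and 3 were lower (Plk2, Gadd45g and Gadd45b). The higher count was 2 after quantile normalization, and the lower count was 1 with both arrays centred on their medians. Cdkn1a, the p21 cell cycle inhibitor, read 12.63 in Thy1-positive cells and 12.89 in MEFs.

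Of 20 cholesterol synthesis genes, 8 were lower by 1 log2 or more in Thy1-positive cells, none was higher and 12 stayed within 1 log2. The differences ran from −1.77 to −0.29 with a median of −0.73, so that all 20 lay below 0, against 52.8% of all genes. Cyp51, the lanosterol demethylase, read 8.71 in Thy1-positive cells, 8.87 on day 2, 9.51 on day 4 and 10.48 in MEFs. Hsd17b7 (8.77 and 10.14), Msmo1 (8.44 and 9.72), Nsdhl (10.17 and 11.34) and Lss (8.57 and 9.73), which act in the later steps of the pathway, were lower too. Against MEFs, the day 2 culture had 6 of the 20 lower by 1 log2 and the day 4 culture none. With both arrays centred on their own medians, 5 of the 20 passed.

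Hmgcs1, which makes the precursor of mevalonate, lay just inside the threshold (10.18 in Thy1-positive cells, 11.19 in MEFs), and its promoter window is shown because it was the only one of 15 in this list with a match to the sterol regulatory element TCACNCCAC, searched on both strands. The window is at chr13:119690101-119690400 on the plus strand of GRCm38.p6, from RefSeq, with the match in capitals.
Hmgcs1: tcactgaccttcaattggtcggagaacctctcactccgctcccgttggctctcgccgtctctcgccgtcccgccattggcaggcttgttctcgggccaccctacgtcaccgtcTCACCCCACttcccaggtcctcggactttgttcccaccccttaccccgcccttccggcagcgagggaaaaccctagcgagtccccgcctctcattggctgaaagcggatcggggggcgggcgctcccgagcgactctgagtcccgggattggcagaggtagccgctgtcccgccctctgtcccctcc
The same letters were found in 1.57% of the higher and 2.61% of the lower genes with a window, against 1.44% of all and 1.43% of those on the array.

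Of the stress and inflammation lists, the immediate early genes had 6 of 24 lower (Dusp5, Dusp4, Ier3, Ier5, Egr3 and Egr2) and 1 higher, the AP-1 subunit gene Fos (9.58 in Thy1-positive cells, 7.89 in MEFs). Chemokines and cytokines had 3 of 33 higher, led by Cxcl5, a neutrophil chemokine (9.95 and 7.84), and 5 lower, among them Il11 (5.84 and 7.71), Ptgs2, the inducible cyclooxygenase (11.02 and 12.69), and Cxcl12, the stromal chemokine (9.15 and 10.69). In the amino acid and ER stress list Slc7a3, a cationic amino acid transporter, was higher (9.74 and 7.70) and Chac1 (7.55 and 9.73) and Ddit3 (7.69 and 8.79), both induced by ATF4, were lower. Of 27 glycolysis and hypoxia genes, Slc2a3, a glucose transporter (9.75 and 7.48), and Egln3 (10.40 and 8.90) were higher, and Vegfa (9.86 and 11.21) and Slc16a3 (8.49 and 9.65) lower. No gene of the interferon response (25 genes) or ribosome biogenesis (28) lists passed 1 log2 in either direction. Of the keratinocyte and ectodermal list (23) Perp was higher and Sprr1a, a cornified envelope protein, lower (6.80 in Thy1-positive cells, 8.71 in MEFs), of the trophoblast list (17) Peg10 was lower, and of 18 histone genes H1f5 was higher (10.72 and 9.70).

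Markers of macrophages, which MEF preparations can hold, were lower in 7 of 18 genes and higher in none, against 2.31% and 2.58% of all genes. Lyz2, macrophage lysozyme, read 8.86 in Thy1-positive cells, 9.72 on day 2, 6.81 on day 4 and 10.27 in MEFs, and Csf1r, the receptor of macrophage colony-stimulating factor, read 6.66, 7.65, 6.35 and 7.83 on the same arrays. The mean level over the 18 markers was 6.98 in Thy1-positive cells (range 5.37 to 9.60) and 7.55 in MEFs (6.01 to 10.27), with 5 and 3 of them below the median of the array. In such bulk RNA, fewer cells of a type and less RNA per cell cannot be told apart. The part of these cells in the other differences was not tested. Of the other marker lists, the neural and glial one held Stmn2 (10.96 and 7.99) above and Fabp7 (9.57 and 11.24) below, the skeletal muscle one Des, the chondrocyte one Sox9, the pluripotent one Fgf4, the epithelial one Dsp, and the erythroid and haematopoietic one no gene past 1 log2.

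The imprinted genes included 5 of 23 lower, Igf2, Peg3 (8.64 in Thy1-positive cells, 10.27 in MEFs), Peg10 (8.27 and 9.66), Rian (9.26 and 10.58) and Zim1 (6.24 and 7.50), and 2 higher, Mest (10.80 and 9.35) and Plagl1 (10.01 and 8.64). Rian is a noncoding RNA of the imprinted Dlk1-Dio3 region, whose maternal copy also gives rise to a large group of microRNAs and small nucleolar RNAs. After the values were seen, all genes of that region were therefore gathered by their place in the RefSeq table (chr12:109452485-110281097, GRCm38.p6). None of the 55 on the array was higher in Thy1-positive cells, 24 were lower and 52 lay below 0, with a median of −0.85. Among its 43 microRNA genes, 18 were lower and the median was −0.74. The other 440 microRNA genes had 5 higher and 10 lower, and a median of −0.03.

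At the 2 ends of the region, Dlk1 read 7.84 in Thy1-positive cells and 8.70 in MEFs, and Dio3 5.52 and 5.29. Meg3, a noncoding RNA gene of the region like Rian, stayed within 1 log2 (6.63 and 7.07, a difference of −0.44). The OKSM cultures had medians over the 55 genes of −0.67 on day 2 and −0.73 on day 4 against the same MEFs. Many of these probe sets were dim: 30 of the 43 microRNA genes read below the array's median in Thy1-positive cells. Of all 55 genes, 33 passed the low-value filter.

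**Figure D5:**
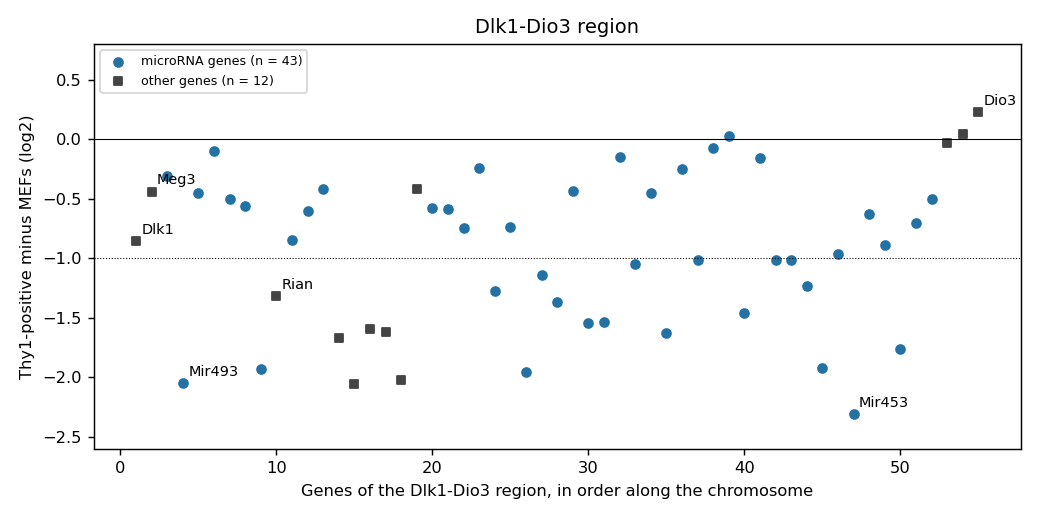
Difference between Thy1-positive cells and MEFs (log2, vertical axis) for the 55 genes of the Dlk1-Dio3 region in their order along the chromosome (horizontal axis), 1 array each, with microRNA genes as circles and other genes as squares. The dotted line marks −1; 24 genes lie below it, the lowest being Mir453 at −2.31.

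Of 33 microRNA genes past 1 log2, 30 had a mature sequence in RefSeq (GRCm38.p6). The 7 lowest microRNA genes of the Dlk1-Dio3 region are shown, with 1 or 2 mature forms each, beside the 2 higher ones of the Mir17 to Mir92 cluster, which promotes proliferation, since these sets differ in direction. Capitals mark the seed, bases 2 to 8, which pairs with target RNAs.
miR-453: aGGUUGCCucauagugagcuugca
miR-493-5p: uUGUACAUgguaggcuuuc
miR-493-3p: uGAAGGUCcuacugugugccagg
miR-323-3p: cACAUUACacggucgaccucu
miR-3070-2-3p: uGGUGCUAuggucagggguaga
miR-382-5p: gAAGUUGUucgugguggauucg
miR-377-3p: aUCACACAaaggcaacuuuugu
miR-667-3p: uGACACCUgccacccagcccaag
miR-19a-3p: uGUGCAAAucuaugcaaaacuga
miR-20a-5p: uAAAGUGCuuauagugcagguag

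The 53 mature sequences of these genes had 53 different seeds, so none of them shared one. Mir453 read 7.74 in Thy1-positive cells, 8.61 on day 2, 8.63 on day 4 and 10.05 in MEFs (−2.31). Mir493 read 5.63 in Thy1-positive cells and 7.67 in MEFs, Mir323 4.93 and 6.89, Mir3070b 5.56 and 7.49, Mir382 6.99 and 8.91, Mir377 5.93 and 7.69, and Mir667 7.62 and 9.25. Mir19a read 5.77 in Thy1-positive cells, 5.82 on day 2, 5.66 on day 4 and 4.37 in MEFs (1.40), and Mir20a read 5.85 and 4.71 (1.15). Mir19a and Mir20a lay below the array median in Thy1-positive cells (6.32) and in MEFs (6.39), so neither passed the low-value filter. Mir17 (0.60) and Mir18 (0.86) of the same cluster stayed under the threshold. Whether these probe sets read the mature RNA, the hairpin or the host transcript is not known here.

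A readout that did not enter the choice of genes is the effect of AGi in the cultures, that is OKSM with AGi minus OKSM alone over the 6 days, tested with limma with the day as a block. A gene was called where the adjusted p (Benjamini-Hochberg over 13865 genes) was below 0.05 and the difference at least 1 log2. Of all genes tested 1.17% were called higher and 2.69% lower with AGi. Of the 560 tested genes that were higher in Thy1-positive cells, 15 were called higher (2.68%) and 89 lower (15.9%), with a median effect of −0.23. Of the 433 tested genes that were lower in Thy1-positive cells, 13 were called higher (3.00%) and 62 lower (14.3%), with a median of −0.31, against 0.00 over all tested genes. Both shares lower with AGi were above the 2.69% of all tested genes, and both shares higher with AGi were above the 1.17%. These differences were not themselves tested. Each arm holds 1 array per day, and nothing says that the days were separate cultures. With the day as a block, these p-values measure the spread of the difference between the arms from day to day. That spread may be technical, and it also holds any change of the AGi effect over the days. The hybridisation controls read higher with AGi by 0.06 to 0.26.

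Several of the genes that were highest in Thy1-positive cells were lower with AGi on all 6 days. Prelp was lower by 1.27 log2 units (difference −1.27 ± 0.08, limma SE, n = 6 days, adjusted p = 0.0003), Prss35 differed by −1.66 ± 0.14 (adjusted p = 0.0006) and Mme by −1.60 ± 0.19 (adjusted p = 0.0013). Ceacam1 (−1.63 ± 0.19, adjusted p = 0.0013) and Igfbp3 (−1.49 ± 0.21, adjusted p = 0.002) did likewise, as did Cd34 (−1.70 ± 0.33, adjusted p = 0.0064), which was not among the 12 highest. Aldh3a1 (−0.35 ± 0.19, adjusted p = 0.186, lower with AGi on 4 of 6 days) and Gsta4 (−0.09 ± 0.10, adjusted p = 0.515), both among the 12 highest, did not pass. Klf4 (−0.02 ± 0.07, adjusted p = 0.836) did not pass either.

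Genes lower in Thy1-positive cells were also lower with AGi in several cases: Cxcl12 by 1.91 log2 units (−1.91 ± 0.09, adjusted p = 0.0001), C1qtnf3 (−2.04 ± 0.18, adjusted p = 0.0006), Cdh11 (−1.71 ± 0.21, adjusted p = 0.0015), Sox9 (−1.26 ± 0.19, adjusted p = 0.0026) and Postn (−1.89 ± 0.32, adjusted p = 0.0038), each on 6 of 6 days. Lrrc15 (0.32 ± 0.19, adjusted p = 0.216), Has2 (0.07 ± 0.10, adjusted p = 0.619) and Kcnma1 (0.02 ± 0.12, adjusted p = 0.926) did not pass. Opposite in sign were Cdh3, which was higher with AGi by 1.07 ± 0.18 (adjusted p = 0.0037), and Peg10, by 1.44 ± 0.30 (adjusted p = 0.0078), both on 6 of 6 days.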

How the data were processed

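DNase-treated total RNA was isolated with the RNeasy Mini kit and labelled with biotin, per the labels' protocols. The authors deposited log2 levels of probe sets, for which the submitters' processing notes name RMA and Affymetrix Expression Console. The settings, the dates of scanning and the genome build behind the probe sets are not given in those notes or the labels. Of 41345 probe sets, 190 were controls, 23521 had 1 symbol in the platform annotation, 1814 several and 15820 none. Gene IDs were used to bring symbols up to date with RefSeq (GRCm38.p6; 193 were not), and where a gene had several probe sets the 1 with the highest mean over 18 arrays was kept. Thy1-positive cells and MEFs were compared by size alone, at a threshold of 1 log2. The AGi effect was fitted with limma 3.58.1 (R 4.3.3; lmFit and eBayes, day as a block, 5 residual degrees of freedom). The day pairs the arms because the labels give it for both. A gene was tested if at least 3 of the 12 culture arrays had it at or above their median. On simulated arrays of 13865 genes, 87.0% of AGi effects of 1 log2 and 98.0% of 2 log2 were called by adjusted p alone. By adjusted p and size together, a stricter rule, 0 unchanged genes were called. The simulated arrays held independent noise and no day effect.

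Named were the 12 highest and 12 lowest members that passed the low-value filter (without small RNA, olfactory receptor, Gm and Rik symbols), up to 5 per list, those apart from 13 other arrays, 3 on each side of the threshold and 22 key genes. Others were named after their values were seen. The members and lists were chosen with earlier results of these data known. Alternatives were other probe set rules, filters, normalizations and thresholds, other AGi fits, and leaving out each day. Figures were drawn with matplotlib 3.10.9.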

Additional observations from a re-analysis of the deposited data

How the results depend on the processing

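The single pair of arrays gives no replicate check, and its precision is limited by the number of arrays. The counts of 573 higher and 513 lower genes stayed within 1.5 times under other filters, probe set rules and normalizations (537 to 670 higher, 450 to 530 lower); at a threshold of 1.5 log2 they were 220 and 216, by construction. No paired analysis was possible for this comparison because each side has 1 array. Of 194 named genes with a value, 0 changed sign and 13 crossed 1 log2 under another normalization or probe set choice.

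Of 48 list counts, 26 moved by over 1.5 times at the threshold of 1.5 log2, 6 with arrays centred on their median (cholesterol synthesis 5 lower, p53 list 1 lower, among them), 2 with quantile normalization (p53 list 2 higher, histones 0) and 1 with the mean of probe sets (imprinted 1 higher). Without the late-against-early genes, an alternative chosen after seeing the data, 9 moved: the lower counts of the matrix (3), surface (5), protease (6), Wnt (2) and Hox (5) lists, and the higher counts of the surface (1), Wnt (1), epithelial (1) and Hox (0) lists. The cause was not tested.

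Leaving out each day in turn, the AGi calls ranged from 11 to 20 (higher members, higher with AGi), 78 to 109 (higher members, lower), 9 to 16 (lower members, higher) and 48 to 74 (lower members, lower). With no replicate block for the day they were 14, 82, 11 and 48. With no minimum size, which admits more genes by construction, they were 109, 228, 41 and 198.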
